A study of Mus musculus with 10 samples.

Results

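Elastic fibre and microfibril genes were examined in MEFs (primary fibroblasts from mouse embryos, cells of connective tissue) with and without the gene Zbtb4. The set was chosen by name as the fibrillins Fbn1 and Fbn2, elastin (Eln), the fibulins Fbln1, Fbln2 and Fbln5, and the latent TGF-beta binding proteins Ltbp1 to Ltbp4. It holds 10 genes, of which 9 were measured among 22180 genes in all. Fbn1 is not analysed here, because no probe set used carries its symbol. Each measured member had 1 probe set with its symbol alone.

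One-colour Affymetrix arrays measured total RNA of 5 Zbtb4 knock-out and 5 wild-type MEF samples, all from dorsal skin of embryos at stage E13.5. The labels give no allele, strain, passage or culture time. They do not tell whether all samples of a genotype are separate embryos. The p-values hence cover the spread of these arrays, which may be technical in part. All values are the authors' deposited log2 expression values, in which a step of 1 is a doubling of signal. Values of different genes are not compared in level, since each probe set has its own brightness.

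Elastic fibres let skin, arteries and lung recoil after stretch. Their core is elastin, which is secreted as tropoelastin and crosslinked by lysyl oxidases, and it is laid down on microfibrils built mainly from fibrillins. Fibulins bind tropoelastin and fibrillin and help to join core and scaffold, with Fbln5 needed for proper elastic fibre assembly in skin. Latent TGF-beta binding proteins are relatives of the fibrillins. Ltbp1, Ltbp3 and Ltbp4 tether latent TGF-beta to the matrix, while Ltbp2 does not bind it. The product of Zbtb4 is a zinc finger factor with affinity for methylated CpG sites.

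Zbtb4 itself was at 5.45 ± 0.27 (SD, n = 5) on knock-out and 6.07 ± 0.11 (SD, n = 5) on wild-type arrays, and the groups did not overlap. Its adjusted p over all genes was 0.628 in limma, and which part of the gene was deleted is not stated. Array medians lay between 3.89 and 3.93. Among the 12 fibroblast markers, Vim ran from 12.01 to 12.20 and Col1a2 from 11.50 to 11.72. Others were less even, such as Pdgfra from 6.37 to 8.12 and Twist2 from 5.61 to 6.49. Xist lay above the mean of the Y-linked genes Eif2s3y, Kdm5d and Uty on 6 arrays, 3 per genotype, and below them on the other 4, so both genotypes hold RNA of both sexes. Knock-out array 3 was the highest in the mean of markers of macrophages and leukocytes. The mean deviation of these markers from their own means was 0.84 there and from -0.58 to 0.15 on the other 4 of that genotype. In the wild type it ran from -0.28 to 0.14. The mean log2 level of these markers ran from 4.15 to 5.57 on knock-out and from 4.45 to 4.87 on wild-type arrays. Single markers differed in range, with Ptprc from 2.36 to 3.36 and Lyz2 from 5.62 to 8.41. The SD of Ptprc was 0.39 on knock-out and 0.09 on wild-type arrays, and that of Lyz2 was 1.06 and 0.45. Of 12 such markers 10 had a higher knock-out mean, with a median difference of 0.16 that was -0.099 without that array.

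No elastic fibre gene differed between genotypes beyond the spread of the arrays. In limma, 0 of 9 members passed an adjusted p of 0.05, where the share over all genes was 0%. At an unadjusted p under 0.05 there were again 0 of 9, against 5.98% of all genes (3.25% higher and 2.73% lower in the knock-out), and the groups of arrays overlapped for all 9, whereas 0.987% of all genes had groups that did not. Means were higher in knock-out cells for 5 members and lower for 4, beside 50.7% higher over all genes. The median log2 difference, knock-out minus wild type, was 0.016, against 0.0020 over all genes, and single members ran from -0.22 for Fbln1 to 0.26 for Ltbp2.

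**Figure D1:**
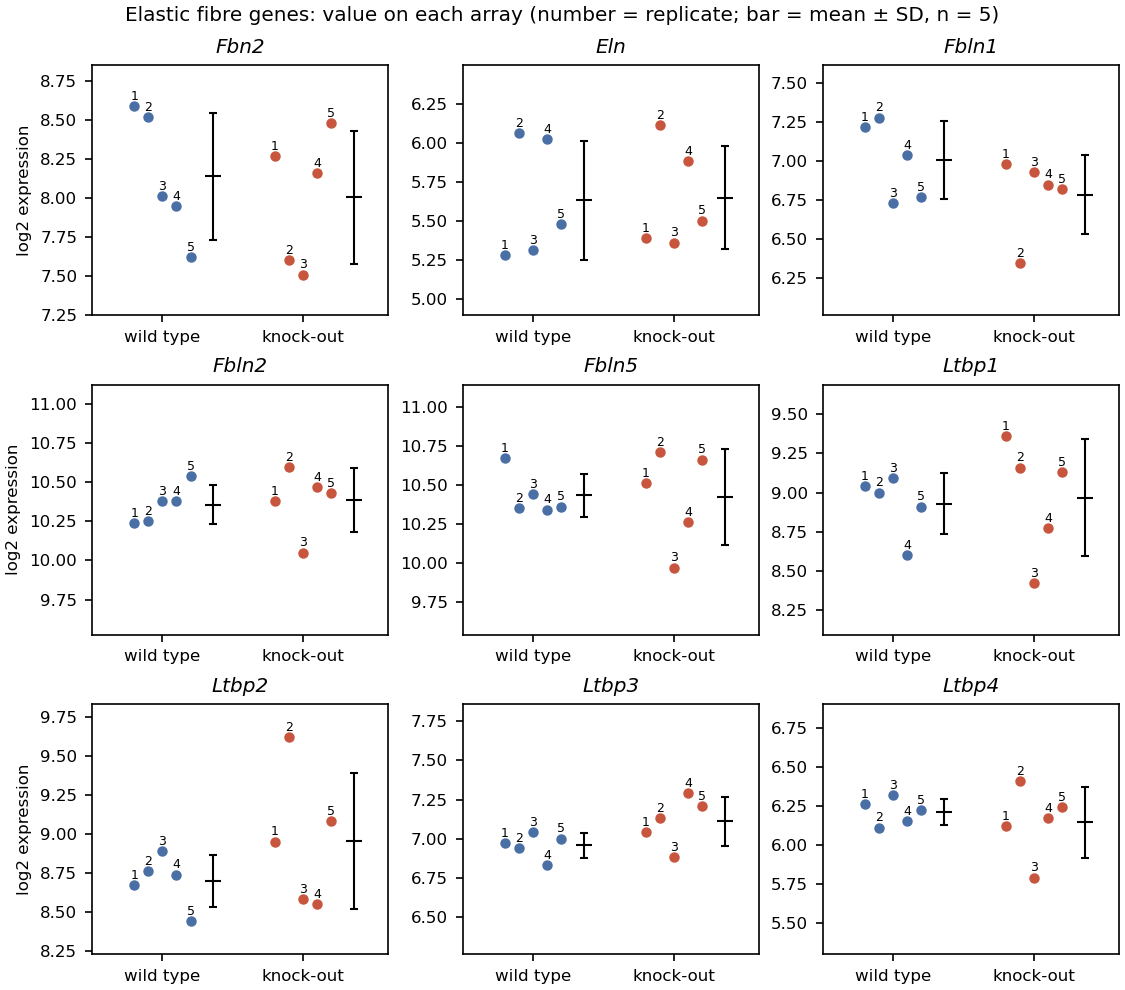
Log2 expression (vertical axis, each panel spanning the same number of log2 units) of the 9 measured elastic fibre genes on 5 wild-type arrays (blue) and 5 knock-out arrays (red), with replicate numbers and mean ± SD. The genotypes overlap in every panel, Eln falls into an upper set at 5.88 and above and a lower set at 5.50 and below in both genotypes, and knock-out array 3 is the lowest point for 5 genes.

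Fbn2, the fibrillin that is most abundant in developing tissue, was among the most variable members. Its knock-out values on arrays 1 to 5 were 8.27, 7.60, 7.51, 8.16 and 8.48, and its wild-type values were 8.59, 8.52, 8.01, 7.95 and 7.62. Both genotypes thus held high and low arrays with a 2.11-fold span from the lowest to the highest array. The difference was -0.13 (standard error 0.22, 95% interval -0.60 to 0.33, limma adjusted p = 0.940). Without single arrays it ran from -0.26 (without wild-type array 5) to -0.010 (without knock-out array 3). The pooled SD within genotypes, 0.418, was larger than that of 98.5% of all genes.

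Eln, the gene for tropoelastin, showed 2 levels that did not follow genotype. Knock-out arrays 1 to 5 gave 5.39, 6.11, 5.36, 5.88 and 5.50, and wild-type arrays 1 to 5 gave 5.28, 6.06, 5.31, 6.02 and 5.48. Arrays 2 and 4 of each genotype lay from 5.88 to 6.11, the other 6 arrays from 5.28 to 5.50, and 0.39 log2 units separated them. The 4 upper arrays were all among the 6 on which Xist, at 10.11 to 10.32, lay above the Y-linked genes, but knock-out array 5 and wild-type array 5, which also belong to those 6, were in the lower set. The part of embryo sex in these levels was not tested. Genotype means were 5.65 ± 0.33 and 5.63 ± 0.38 (SD, n = 5 each), and the difference of 0.016, whose sign turned to -0.0014 when arrays were centred on their medians, had a 95% interval from -0.39 to 0.42 (limma adjusted p = 0.993). In RNA of whole cultures, fewer cells that make a transcript and less of it per cell cannot be told apart.

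The fibulins are secreted proteins with calcium-binding EGF-like repeats, and none of the 3 among the members passed the test. Fbln1, found in many basement membranes and in elastic fibres, had knock-out values of 6.98, 6.35, 6.93, 6.85 and 6.82 on arrays 1 to 5 and wild-type values of 7.22, 7.28, 6.73, 7.04 and 6.77. Wild-type arrays 1, 2 and 4 lay above every knock-out array, wild-type arrays 3 and 5 lay within the knock-out range, and the lowest value was that of knock-out array 2. The mean was 1.17-fold lower, a difference of -0.22 (standard error 0.14, limma adjusted p = 0.842), and without knock-out array 2 it was -0.11.

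Fbln2, which binds fibrillin and many basement membrane proteins, was the steadiest fibulin. Knock-out arrays gave 10.38, 10.60, 10.05, 10.47 and 10.43, and wild-type arrays gave 10.24, 10.25, 10.38, 10.38 and 10.54. Knock-out array 3 was the lowest of the 10, and wild-type arrays 1 and 2 lay below the other 4 knock-out arrays. The difference was 0.029, with an interval from -0.19 to 0.25 (limma adjusted p = 0.978), and it came to 0.11 without knock-out array 3.

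Fbln5 had knock-out values of 10.51, 10.71, 9.97, 10.26 and 10.66 and wild-type values of 10.67, 10.35, 10.44, 10.34 and 10.36. Its lowest arrays were knock-out 3 and 4 and its highest was knock-out 2, so the knock-out arrays spread beyond the wild-type range on both sides. The difference was -0.013, with an interval from -0.30 to 0.27 (limma adjusted p = 0.993), and it came to 0.10 without knock-out array 3.

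Among the latent TGF-beta binding proteins, Ltbp2 and Ltbp3 had higher and Ltbp4 a slightly lower knock-out mean, none beyond the spread of arrays. Ltbp1 gave 9.36, 9.16, 8.42, 8.77 and 9.13 on knock-out arrays 1 to 5 and 9.04, 9.00, 9.09, 8.60 and 8.91 on wild-type arrays 1 to 5. Knock-out arrays 1, 2 and 5 exceeded every wild-type array, while knock-out array 3 was below all of them. The difference was 0.040 (limma adjusted p = 0.982). Leaving out knock-out array 3 gave 0.18, and leaving out knock-out array 1 gave -0.058.

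Ltbp2, a microfibril-associated member that interacts with Fbln5, reached its highest value on knock-out array 2. Knock-out values were 8.95, 9.62, 8.58, 8.55 and 9.08, and wild-type values were 8.67, 8.76, 8.89, 8.74 and 8.44. Knock-out arrays 1, 2 and 5 lay above every wild-type array and knock-out arrays 3 and 4 within the wild-type range. The mean was 1.19-fold higher, a difference of 0.26 (standard error 0.17, interval -0.12 to 0.63, limma adjusted p = 0.852). Without knock-out array 2 it was 0.090.

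Ltbp3, a carrier of latent TGF-beta known for its part in bone and tooth growth, had the smallest p-value of the members. Its knock-out values were 7.04, 7.13, 6.88, 7.29 and 7.21, and its wild-type values were 6.97, 6.94, 7.04, 6.83 and 7.0. Knock-out arrays 1, 2, 4 and 5 lay above every wild-type array, array 1 only just, and array 3 lay near their lower end. The mean was 1.11-fold higher, a difference of 0.15 (standard error 0.087, interval -0.034 to 0.34). The two-sided exact permutation test, over 252 splits of the arrays, gave p = 0.0873, and limma gave an adjusted p of 0.841. With single arrays left out, the difference ran from 0.11 to 0.21.

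Ltbp4, which takes part in elastic fibre assembly together with Fbln5, gave 6.12, 6.41, 5.79, 6.17 and 6.24 on knock-out arrays and 6.26, 6.11, 6.32, 6.15 and 6.22 on wild-type arrays. Both extremes were knock-out arrays, array 2 at the top and array 3 at the bottom, with the wild type in between. The difference was -0.065, with an interval from -0.29 to 0.16 (limma adjusted p = 0.940), and it turned to 0.024 without knock-out array 3.

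**Figure D2:**
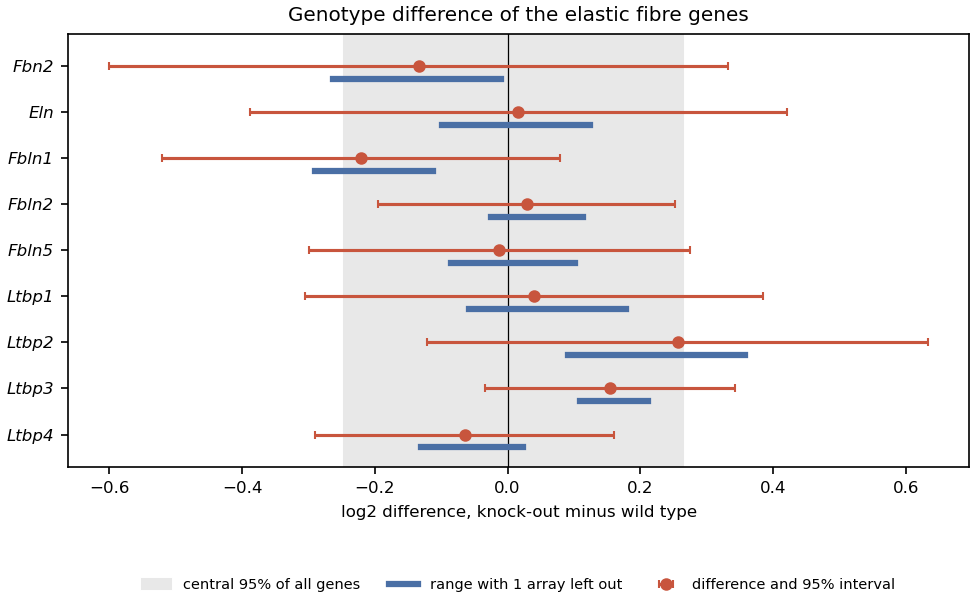
Log2 difference (horizontal axis, knock-out minus wild type) of each elastic fibre gene with its 95% interval from limma (red) and the range of the difference with 1 array left out (blue), over the central 95% of all genes (grey). Every red interval covers 0, and Ltbp2, at 0.26, and Fbln1, at -0.22, lie furthest from it.

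The intervals give the range of mean differences that these arrays leave possible when taken as unpaired. Whether the replicate numbers mark a pairing is not settled, and Eln differed by at most 0.13 log2 units within a number. Intervals with the numbers as pairs are not given here. For Ltbp3 and Fbln2, the most precise members, the intervals reach a 1.27-fold higher and a 1.19-fold higher mean. For Fbn2 the interval runs from 0.660 to 1.26 times the wild-type mean, and for Eln from 0.764 to 1.34 times.

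The members varied more between knock-out than between wild-type arrays. The SD was larger in the knock-out for 8 of 9 members, with Eln the exception, and the median SD was 0.308 against 0.165 in the wild type. Over all genes the SD was larger in the knock-out for 55.7%, with median SDs of 0.159 and 0.147. Without knock-out array 3 the SD was larger in the knock-out for 6 of 9 members (median 0.244) and without knock-out array 2 for 7 of 9 (median 0.241). Without both it was larger for 4 of 9 (median 0.162), beside 49.2% of all genes. Those arrays hold many of the extreme member values and no wild-type array was left out, so a smaller knock-out SD follows from the choice. This difference in spread is a description and was not tested.

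Knock-out array 2 held the highest value of 5 members, namely Eln, Fbln2, Fbln5, Ltbp2 and Ltbp4. It also held the lowest Fbln1 value, and its Fbn2 value of 7.60 was the lowest but one. Knock-out array 3 held the lowest value of 5 members, namely Fbn2, Fbln2, Fbln5, Ltbp1 and Ltbp4, so Fbln2, Fbln5 and Ltbp4 are in both sets. On knock-out array 3, 8 of 9 members were below their own mean, with Fbln1 the exception. The mean deviation of the 9 members was -0.32 on that array and between -0.12 and 0.14 on all others. The same array carried the high leukocyte marker signal given above, and the part of those cells in its low elastic fibre values was not tested. Knock-out array 1 had the second highest leukocyte score, 0.15, with a member mean deviation of 0.066, and knock-out array 5 had the lowest, -0.58, with 0.13. Without knock-out array 3, 7 of 9 members had a higher knock-out mean and the median difference was 0.10, and without knock-out array 2 only 2 of 9 did, with a median of -0.033.

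**Figure D3:**
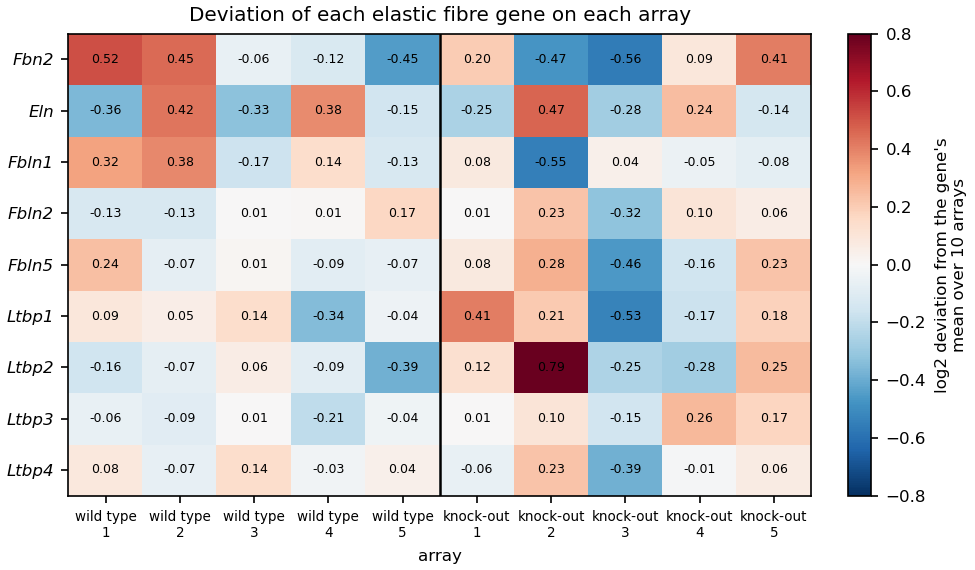
Log2 deviation of each elastic fibre gene (rows) from its own mean over the 10 arrays, on each array (columns; colour and printed value). Knock-out array 3 is blue for 8 of 9 genes, and knock-out array 2 combines the highest Ltbp2 value (0.79) with the lowest Fbln1 value (-0.55).

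**Figure D4:**
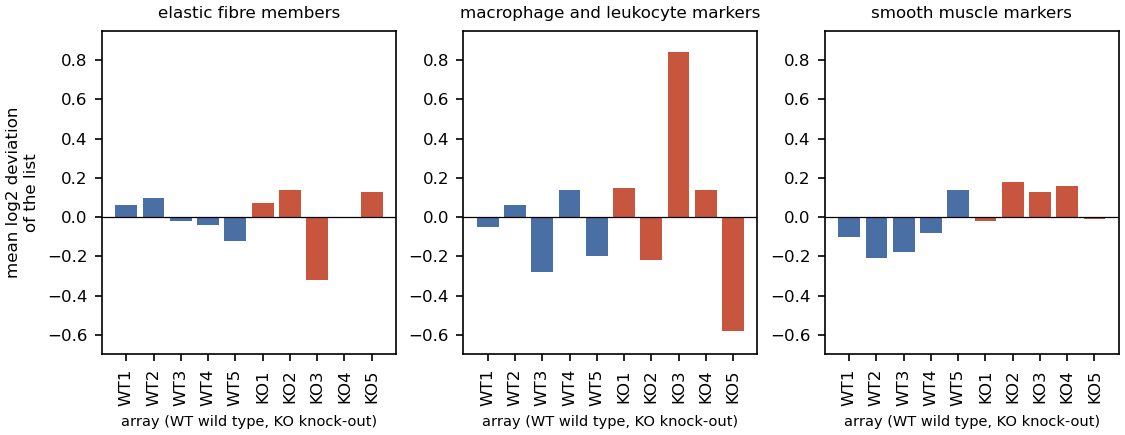
Mean log2 deviation (vertical axis) of the elastic fibre genes, of 12 macrophage and leukocyte markers and of 12 smooth muscle markers on each array, wild type in blue and knock-out in red. Knock-out array 3 has the lowest elastic fibre score (-0.32) and the highest leukocyte score (0.84).

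Genotype differences were also taken among arrays of the same sex. Among the 6 arrays with Xist above the Y-linked genes (3 per genotype), 7 of 9 members had a higher knock-out mean and the median difference was 0.12, with Ltbp2 at 0.44, Ltbp3 at 0.29 and Fbln1 at -0.36. Among the 4 arrays with Y-linked genes above Xist (2 per genotype, knock-out array 3 among them), only Eln had a higher knock-out mean, the median was -0.098, and Fbn2 was at -0.41, Ltbp4 at -0.33, Fbln5 at -0.32, Ltbp3 at -0.046 and Ltbp2 at -0.013. The median difference of the 12 leukocyte markers was -0.37 in the first comparison and 0.63 in the second, and their part in the members' values was not tested. The difference between these effects was tested as an interaction in limma over all genes. It did not pass for any member, with the smallest adjusted p, 0.841, for Ltbp4, whose effect differed by 0.45 with a standard error of 0.18. Ltbp4 alone among them had an unadjusted p under 0.05 in that fit, as did 5.88% of all genes, while 0% had an adjusted p under 0.05.

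Promoters were set beside these values because the Zbtb4 protein binds methylated CpG sites; methylation was not measured here. RefSeq (GRCm38.p6) start sites were used for 8 of the 10 genes, with 13 windows of 250 bases upstream. Fbn2 and Eln had no window among those used. The windows of Ltbp2, Fbln1 and Ltbp3, the 3 members with the largest mean differences, are shown 5′ to 3′ on the gene's strand, with each CpG in capitals.
Ltbp2: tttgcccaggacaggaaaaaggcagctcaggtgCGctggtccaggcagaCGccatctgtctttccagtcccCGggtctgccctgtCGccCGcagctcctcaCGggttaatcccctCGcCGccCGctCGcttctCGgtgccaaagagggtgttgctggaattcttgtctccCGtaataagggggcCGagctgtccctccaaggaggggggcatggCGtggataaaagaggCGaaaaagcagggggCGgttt
Fbln1: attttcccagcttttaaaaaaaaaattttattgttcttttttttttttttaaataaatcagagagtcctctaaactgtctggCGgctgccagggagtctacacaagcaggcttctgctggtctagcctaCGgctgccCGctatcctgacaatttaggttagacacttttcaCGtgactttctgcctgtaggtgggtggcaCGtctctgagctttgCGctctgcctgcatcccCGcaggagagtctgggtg
Ltbp3: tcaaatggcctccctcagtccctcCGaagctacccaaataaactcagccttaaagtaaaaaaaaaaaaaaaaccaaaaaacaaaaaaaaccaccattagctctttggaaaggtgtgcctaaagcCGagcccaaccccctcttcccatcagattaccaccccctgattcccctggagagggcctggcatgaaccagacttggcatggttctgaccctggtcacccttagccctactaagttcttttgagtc
The Ltbp2 window is chr12:84876492-84876741 on the minus strand, the Fbln1 window chr15:85205699-85205948 on the plus strand (the first of 2 Fbln1 starts) and the Ltbp3 window chr19:5740650-5740899 on the plus strand.

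CpG content differed widely among these promoters. The Ltbp2 window holds 16 CpGs, the Fbln1 window 7 and the Ltbp3 window 2, and the window of the second Fbln1 start, which overlaps the first, holds 14. The median was 13 over the 13 member windows, some of which overlap, and 6, with an interquartile range of 2 to 16, over all 32851 windows of this length. Member windows on the chromosome that carries Fbn2 were left out before counting, while the counts over all windows kept that chromosome. Whether Fbn2 had a window was thus not examined, and the member counts cover only the windows used. Ltbp4 had the densest member window, with 29 CpGs, and its mean differed by -0.065. The Sp1-type box GGGCGG, searched on both strands, was in 8 of 13 member windows and in 32.7% of all windows. The TATA box motif TATAAA, on both strands, was in 0 of 13, against 12.4%. The motif TCCTGCNA, known for binding the related protein Kaiso (Zbtb33), was on either strand in 1 of 13, that of Fbn1, and in 4.03% of all windows. GGGCGG contains a CpG and so overlaps that count, and a match in these letters is a description only.

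Partners in microfibril and fibre assembly were as mixed as the members. Of 21 measured partner genes, 12 had a higher and 9 a lower knock-out mean, with a median difference of 0.054 (0.015 to 0.10 without single arrays), and 0 passed the adjusted threshold in limma. Adamts17, a secreted metalloprotease of the family that acts on microfibrils, was the only partner with groups that did not overlap. This is 1 of 21 partners, beside 0.987% of all genes. Its knock-out values were 4.55, 4.40, 4.30, 4.29 and 4.32 and its wild-type values 4.26, 4.23, 3.98, 4.18 and 4.17, so the lowest knock-out array was just above the highest wild-type array. The difference was 0.21 (limma adjusted p = 0.821). Emilin1, an elastic fibre glycoprotein, differed by 0.19 (0.11 without wild-type array 4) and the microfibril-associated gene Mfap3 by -0.14 (-0.091 without the same array), each with an adjusted p of 0.842 in limma.

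The crosslinking list held lysyl oxidases, which join tropoelastin monomers, and the gene Atp7a. Of its 5 measured genes, 3 had a higher and 2 a lower mean. The median was 0.10, and 0.031 without knock-out array 2. Loxl4, a lysyl oxidase family member, gave 6.32, 6.24, 6.08, 6.27 and 6.59 on knock-out arrays and 6.16, 5.79, 6.19, 6.04 and 6.0 on wild-type arrays. All knock-out arrays but array 3 exceeded every wild-type array. The difference was 0.26 (limma adjusted p = 0.821). Lox, the principal crosslinking enzyme, differed by 0.10 (adjusted p = 0.864 in limma), by 0.058 without wild-type array 4 and by -0.0083 within the arrays with Y-linked genes above Xist. The copper transporter gene Atp7a, which supplies lysyl oxidases with their cofactor, differed by -0.15 (adjusted p = 0.842 in limma).

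TGF-beta ligands and activators, the cargo and release machinery of the latent complexes, had 8 of 12 means higher, with a median of 0.059 (0.032 to 0.12 without single arrays) and 0 past the adjusted threshold in limma. Tgfb3 gave 9.04, 9.15, 8.99, 8.95 and 8.73 on knock-out and 8.83, 8.85, 8.76, 8.73 and 8.63 on wild-type arrays. Its knock-out arrays 1 to 4 lay above the whole wild type. The difference was 0.21 and that of Tgfb2 was 0.25 (limma adjusted p = 0.821 and 0.823). At an unadjusted p under 0.05 these were 2 of 12 in the higher direction, where the share over all genes was 3.25%. Lrrc32, a membrane anchor of latent TGF-beta, differed by 0.30, or 0.16 without knock-out array 4. TGF-beta response genes had 4 of 12 means higher and 8 lower, with a median of -0.023 (0.0012 under quantile normalization) and 0 with an unadjusted p under 0.05. Among them, the inhibitor gene Smad7 differed by -0.10 (-0.064 without wild-type array 4), the corepressor gene Tgif1 by -0.11 (-0.038 without knock-out array 3) and Col1a1 by 0.072 (0.036 without wild-type array 5).

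Proteases that can degrade elastin, listed with their inhibitors, had 13 of 15 means higher, with a median of 0.14. None passed the adjusted threshold in limma. Mmp12 alone, 1 of 15, had an unadjusted p under 0.05, where the share over all genes was 5.98%. That gene lay below the array medians of 3.89 to 3.93 and among the dimmest 40% of genes. Mmp12, the macrophage elastase, was at 2.75 ± 0.21 on knock-out and 2.53 ± 0.07 on wild-type arrays (SD, n = 5 each), a difference of 0.22, or 0.16 when knock-out array 3 was left out. Ctsl, a lysosomal cysteine protease, differed by 0.16 (0.24 without knock-out array 2) and Cst3, a secreted inhibitor of such proteases, by 0.15. The list's mean deviation was 0.19 on knock-out array 3, the highest of the 10, where leukocyte markers were also highest, and the part of those cells was not tested. Without that array or any other single array, the list's median stayed between 0.10 and 0.18.

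Other cell types that make or border elastic fibres were followed by their markers. Smooth muscle markers had 12 of 12 means higher in knock-out cells, with a median of 0.14 and Cnn1 (calponin) at 0.37, a pattern already known from these arrays, yet their deviation of 0.14 on wild-type array 5 was within the knock-out range of -0.02 to 0.18. Eln, which smooth muscle makes in quantity, differed by 0.016 beside it. Fibroblast markers had 9 of 12 means lower, with a median of -0.027 that was 0.0035 without wild-type array 1. Among them Twist2 was at -0.33 and Pdgfra at -0.35, which ran from -0.60 without wild-type array 5 to -0.17 without knock-out array 3. Endothelial markers had 9 of 12 means higher and 3 lower, with a median of 0.11 (0.0034 among the arrays with Xist above Y-linked genes). Differences ran from -0.19 for Kdr to 0.61 for Cdh5, at mean log2 levels from 3.55 to 3.88. Cdh5 and Esam, 2 of 12, had groups that did not overlap, beside 0.987% of all genes. The same 2 had an unadjusted p under 0.05 in limma, beside 5.98% of all genes. Both lay below the array medians on every array. Cartilage markers had 5 of 9 and keratinocyte and epithelial markers 4 of 8 means higher, with medians of 0.0028 and 0.0095, both below 0 under quantile normalization or with arrays centred on their medians. None of these genes passed the adjusted threshold in limma, and the part of other cells in the values of the elastic fibre genes was not tested.

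**Figure D5:**
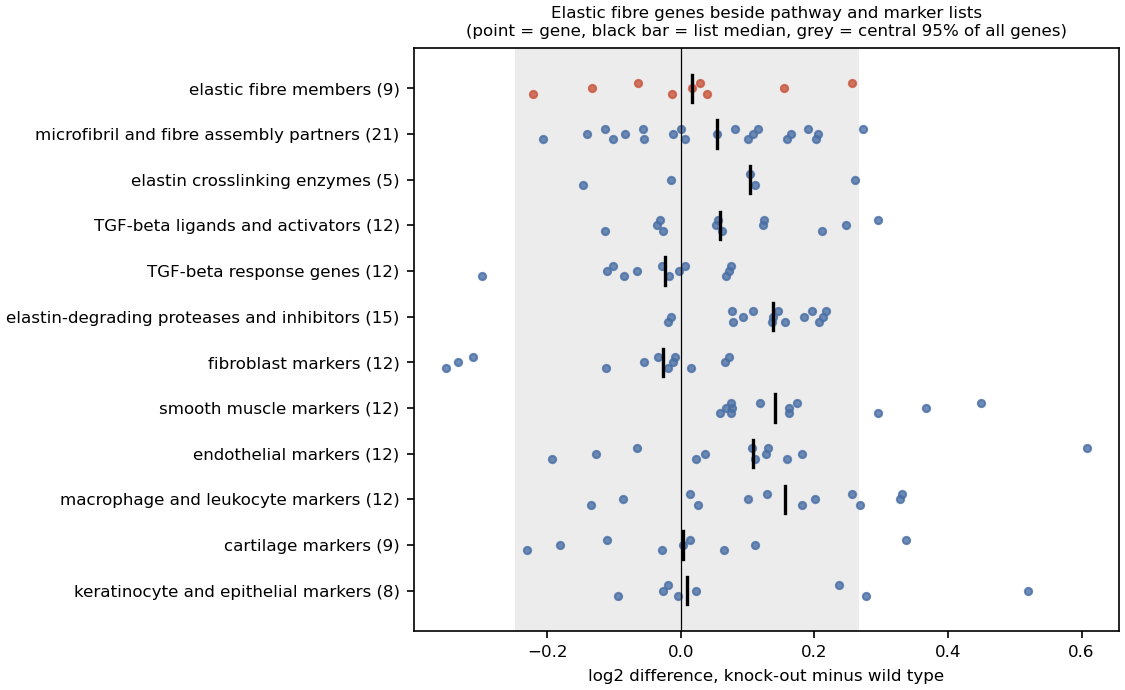
Log2 difference (horizontal axis, knock-out minus wild type) of each measured gene of the elastic fibre set (red) and of 11 pathway and marker lists (blue; number of genes in brackets), with list medians (black) and the central 95% of all genes (grey). The elastic fibre genes scatter on both sides of 0 with a median of 0.016, while all 12 smooth muscle markers lie above 0.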

How the data were processed

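The values are the authors' deposited log2 expression values, 1 column per array for 41345 probe sets; their summarisation, background correction and normalisation are not given in the sources used here, and neither is the level of background. The platform annotation gave 1 gene symbol for 23521 probe sets, which were kept, several for 1814 and none for 16010. A gene with more than 1 probe set was represented by the one of highest mean, giving 22180 genes. Genotypes were compared in limma 3.58.1 (lmFit, eBayes; R 4.3.3) without covariates, and p-values were adjusted by Benjamini-Hochberg over all genes. The threshold was an adjusted p of 0.05. The limma fit was first tested on data simulated with independent noise, and the motif search on made-up sequences. For single members, a two-sided exact permutation test over 252 splits was run, whose smallest p is 0.00794. The number of arrays limits the precision, with a median standard error of 0.101 over all genes. Members and lists were chosen with earlier results of these data known, and lists are given by counts and medians with no test. Named genes are Zbtb4, the members, and up to 3 genes with the smallest p of each other list. A few more (Vim, Col1a2, Ptprc, Lyz2, Xist, Kdr, Efemp1 and Mfap5) were chosen after their values were seen. Fbn1, Efemp2, Loxl2 and Krt5 are not analysed here. Alternatives covered normalization, centring, dim genes, probe set averaging, moderation, array weights, the replicate block, a Y-linked covariate and single arrays left out. Comparisons within arrays of 1 sex, their interaction and the counts without arrays 2 and 3 of the knock-out were added after the data were seen.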

Additional observations from a re-analysis of the deposited data

Results flagged for a closer look

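In each genotype, the highest and lowest array of every named gene and list score was compared with its nearest neighbour. Of 110 such groups of 5 arrays, 6 held an array standing far from the rest, and chance gives about 1 in 20. The macrophage and leukocyte score of knock-out array 3 was not among them. Among the members, only Fbln1 was concerned, with knock-out array 2 at 6.35 and the nearest knock-out array at 6.82. For Lrrc32, wild-type array 1 was at 7.63 with the next at 7.94, and the score of the TGF-beta ligand and activator list, to which it belongs, was -0.12 on the same array with the next at -0.03. For Comp, a cartilage matrix gene, knock-out array 5 was at 4.87 with the next at 3.71. For Dsp, the desmoplakin gene, wild-type array 4 was at 3.35 with the next at 3.69, and the keratinocyte and epithelial score was -0.17 there with the next at -0.05.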

How the results depend on the processing

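Under 18 alternative settings, 0 members passed the threshold in any, and the smallest adjusted p of a member was 0.676. Members with differences near 0 changed sign in 15 of 162 refits: Eln ran from -0.099 to 0.12, Fbln2 from -0.025 to 0.11, Fbln5 from -0.085 to 0.10, Ltbp1 from -0.058 to 0.18 and Ltbp4 from -0.13 to 0.024 with single arrays left out, and Eln was -0.0014 with arrays centred on their medians. Fbn2, Fbln1, Ltbp2 and Ltbp3 kept their sign in all 18, but without single arrays Fbn2 ran from -0.26 to -0.010, Fbln1 from -0.29 to -0.11 and Ltbp2 from 0.090 to 0.36. Dropping dim genes, averaging probe sets, other moderation and the replicate block could not alter a member's difference. The refits under those settings kept every sign by construction. Leaving out single arrays moved the members' median between -0.036 and 0.10. Over all genes, 0 passed in every setting, an adjusted p under 0.1 included, except without wild-type array 5, where 1 passed (range 0 to 1). Within the arrays with Xist above Y-linked genes, signs turned for Fbn2 (0.051), Eln (-0.027), Fbln5 (0.19) and Ltbp4 (0.12). Within those with Y-linked genes above Xist, they turned for Fbln2 (-0.098), Ltbp1 (-0.18), Ltbp2 (-0.013), Ltbp3 (-0.046), Lox (-0.0083), Lrrc32 (-0.068) and Comp (-0.15). The cause of these turns was not tested. The labels do not say that replicate numbers pair the samples, and arrays of the same number correlated above 0.1 in their deviations for 1 of 5 numbers only. The sex markers nevertheless agreed for 5 of 5 numbers, and Eln differed by at most 0.13 within a number, so whether the numbers mark a pairing is not settled. With the number as a replicate block, 0 genes passed. Each number holds an array of each genotype, so the block could change standard errors but not differences. The members' median of 0.016 was hence bound to stay and does not bear on the pairing. No member has a further probe set with its symbol alone, so averaging changed nothing for them and single probe sets could not be compared. With the dimmest 40% of genes left out, the endothelial median turned to -0.052 and the keratinocyte and epithelial median came to 0.24.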

Other observations

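Among the partners, Efemp1 (fibulin-3), a fibulin of connective tissue that was not among the members, spanned the widest range over the 10 arrays, from 8.40 to 10.34, with means of 9.53 (knock-out) and 9.73 (wild type), a difference of -0.21 (limma unadjusted p = 0.469). Mfap5, which binds fibrillin microfibrils, ran from 6.61 to 7.78 and differed by 0.27 (limma unadjusted p = 0.179).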
